A study of Mus musculus with 16 samples.

Results

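H3K9me3 peaks listed at 10 families of developmental transcription factor genes (Hox, Cdx, Gata, Nkx, Lhx, Pax, Sox, Fox and Tbx among them) were examined in mouse small intestinal crypts. A peak belonged to the set when the gene symbol deposited with it began with a family name followed by its member number, which selected 248 of 212313 peaks at 26 genes. The set included the 2 long transcripts Sox2ot and Tbx3os1, which carry the name of a neighbouring factor gene and hold 27 of the peaks. The data came from ChIP-seq for histone H3 trimethylated (H3K9me3) or dimethylated (H3K9me2) at lysine 9 on whole crypt isolates of C57BL/6 mice, with 3 wild type (WT) and 3 Smarcad1-deleted (KO) libraries and 1 input library (chromatin without antibody) per genotype and mark, 16 in all. KO mice were homozygous for floxed Smarcad1 (fl/fl) from a single ES cell-derived line. Cre recombinase under the Villin promoter, which is active in the intestinal epithelium, excised the floxed exons and shifted the reading frame. Other cells of an isolate therefore keep the intact gene. No H3K9me3 peak and no H3K9me2 region was listed at Smarcad1 (0 of each), which left no value here to check the deletion with, and since the marks do not measure expression, the cell type was not checked either. H3K9me3 libraries held between 7068159 (KO replicate 1) and 11829780 (KO replicate 2) recovered reads in peaks, with a median of 23 to 38 reads per peak.

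The 10 families encode DNA-binding proteins that set position along the body axis and the identity of tissues. HOX, CDX, LHX, NKX and PAX factors bind DNA through a homeodomain or a paired domain, SOX factors through an HMG box, FOX factors through a forkhead domain, GATA factors through zinc fingers and TBX factors through a T-box. In the intestine, Cdx2, Gata4, Foxa genes and Sox9 act in the epithelium, while Foxl1 and Foxf genes act in the mesenchyme. Many developmental regulators that a tissue does not use are kept silent by Polycomb proteins and H3K27 trimethylation, a system separate from H3K9me3, which marks repeats, zinc finger gene clusters and other constitutive heterochromatin. Smarcad1 is an ATP-dependent chromatin remodeler.

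The sequences at the centre of 4 of the 7 family peaks that differed between KO and WT are shown for reference. So is that of the Foxp2 peak with the highest WT ChIP over input ratio, which is not typical of the gene. Its log2 change in KO was -0.40, the lowest at Foxp2, where the median was 0.12. KO and WT were compared on whole peaks, not on these windows. Each sequence is 200 bases of the GRCm38 plus strand, with every CpG in capitals.
Lhx4 chr1:155725101-155725300: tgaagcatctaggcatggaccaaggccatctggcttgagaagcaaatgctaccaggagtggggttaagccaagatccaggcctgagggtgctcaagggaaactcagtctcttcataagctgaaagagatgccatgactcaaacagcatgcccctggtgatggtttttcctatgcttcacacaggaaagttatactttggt
Sox13 chr1:133429626-133429825: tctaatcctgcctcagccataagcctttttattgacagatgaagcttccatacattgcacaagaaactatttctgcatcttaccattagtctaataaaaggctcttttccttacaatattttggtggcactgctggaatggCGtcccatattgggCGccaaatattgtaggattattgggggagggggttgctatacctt
Foxn3 chr12:99535626-99535825: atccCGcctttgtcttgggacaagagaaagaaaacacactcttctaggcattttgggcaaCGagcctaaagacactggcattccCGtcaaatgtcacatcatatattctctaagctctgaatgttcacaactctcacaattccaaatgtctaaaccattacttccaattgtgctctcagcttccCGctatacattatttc
Foxa1 chr12:57549876-57550075: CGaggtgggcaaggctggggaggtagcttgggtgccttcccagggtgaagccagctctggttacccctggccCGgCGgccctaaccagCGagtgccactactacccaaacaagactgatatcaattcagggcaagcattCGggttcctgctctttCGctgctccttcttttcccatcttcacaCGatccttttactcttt
Foxp2 chr6:15387351-15387550: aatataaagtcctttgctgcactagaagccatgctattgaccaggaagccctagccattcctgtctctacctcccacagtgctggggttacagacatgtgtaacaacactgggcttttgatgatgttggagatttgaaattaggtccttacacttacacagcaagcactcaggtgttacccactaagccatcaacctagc
The Foxa1 window held 7 CpGs at a GC content of 56.0%, against 4 CpGs in the Foxn3 window, 2 in the Sox13 window and 0 in the Lhx4 and Foxp2 windows. The genome annotation masked 90 of 200 bases as repeat in the Foxp2 window, 43 in the Sox13 window, 25 in the Foxn3 window and 0 in the Foxa1 and Lhx4 windows.

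Most genes of the 10 families had no H3K9me3 peak. Of 161 protein-coding family genes in the GENCODE M21 annotation, 24 (14.9%) were listed with a peak, compared with 31.2% of all 21938 protein-coding genes. Family genes were shorter (median 6858 bp against 17425 bp) and richer in GC (52.2% against 45.2%). Within genes under 10 kb, 6 of 99 family genes had a peak (6.06%) against 18.9% of all genes, and between 10 and 50 kb, 6 of 42 (14.3%) against 25.3%. From 50 to 100 kb the shares were 5 of 13 (38.5%) and 45.8%, and all 7 family genes of 100 kb or more had a peak, against 76.0% of all genes of that length. The start of at least 1 annotated transcript lay in a peak at 5 family genes (3.11%: Foxi1, Foxp2, Hoxc6, Hoxd3 and Sox30), against 5.71% of all protein-coding genes. These shares describe the peak set and were not tested.

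**Figure D1:**
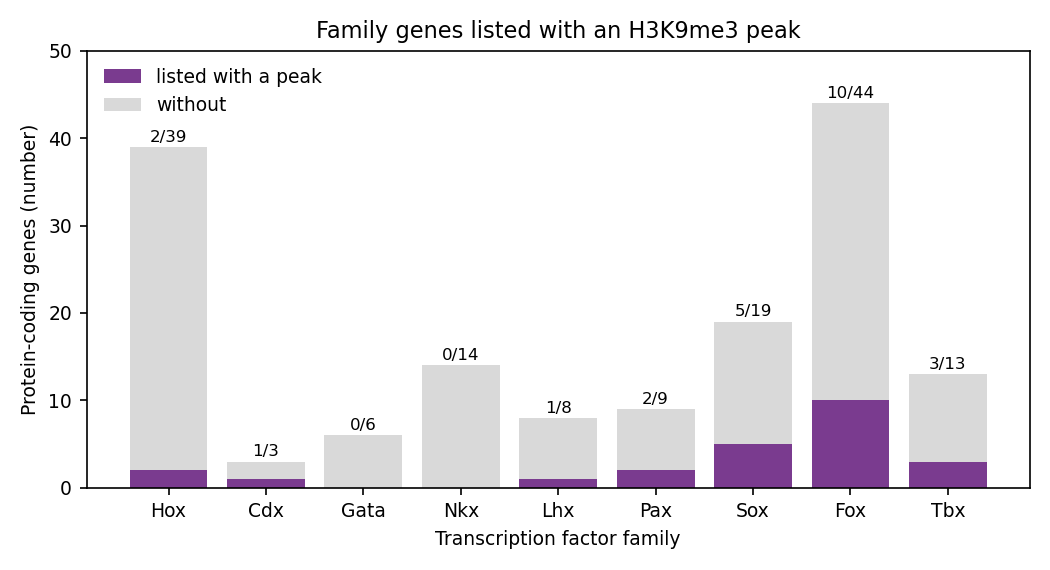
Number of protein-coding genes in each of 9 families (y axis), divided into genes listed with at least 1 H3K9me3 peak (purple) and genes without (grey); the numbers above the bars give both counts. Gata and Nkx had none, and Hox had 2 of 39.

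No peak was listed at any of the 6 Gata or 14 Nkx genes. Gata4 and Gata6, which act in intestinal epithelium and mesoderm, and Nkx2-3, which acts in gut mesenchyme, were among them. The Cdx family specifies intestinal identity, and its main intestinal members Cdx1 and Cdx2 had no peak. Its single peak lay in an intron of Cdx4, centred 0.9 kb from the gene start, and was 300 bp wide with 7 to 13 reads per ChIP library. Of the 8 Lhx genes, only Lhx4, a regulator of pituitary and motor neuron development, had peaks (2), and of the 9 Pax genes, Pax5, the B cell identity factor, had 4 and Pax8, a thyroid and kidney factor, had 1. Tbx peaks lay at Tbx2 (3), Tbx5 (1), Tbx15 (1) and the transcript Tbx3os1 (3), and 10 of 13 protein-coding Tbx genes had none.

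The 4 Hox clusters, whose order of genes follows the body axis, span 492 kb and held 6 H3K9me3 peaks and no H3K9me2 region (0). The H3K9me3 density was 1.22 peaks per 100 kb, intergenic sequence included, compared with 7.79 per 100 kb of the assembled chromosomes. Counted over gene bodies alone, the density was 1.18 for Hox, 0.829 for Pax, 1.11 for Lhx, 1.3 for Tbx and 1.56 for Sox genes. It was 3.03 for Cdx, 7.6 for Fox, 0 for Gata and Nkx, and 4.71 over all protein-coding genes. Hoxa held 0 peaks, Hoxb 3, which lay over 5 kb from any gene and so had no symbol, Hoxc 1 and Hoxd 2. The Hoxc peak was listed at Hoxc5 and also covered a start site of Hoxc6. A peak of 1950 bp covered the start of an internal transcript of Hoxd3, and a second of 1350 bp covered coding sequence and UTR 34.9 kb from the annotated start of the gene. The 3 listed Hox peaks were rich in GC (median 55.2%, all peaks 39.6%) and in CpG (41.0 per kb, all peaks 5.24), and poor in repeats (5.41% of bases, all peaks 35.2%).

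Foxp2 alone held 157 of the 248 peaks (63.3%), Sox2ot 24 and Sox5 19, and the other 23 genes shared 48. FOXP2 is a forkhead repressor known from brain and lung. Its gene (chr6:14901349-15441977, plus strand) is 541 kb long, and 156 peaks over it covered 56.7% of its length, while the last peak lay 3074 bp beyond its 3' end. This gave 28.9 peaks per 100 kb, compared with a median of 1.51 over 998 protein-coding genes of at least 200 kb, of which 43 were denser. Foxp2 is AT-rich (GC 36.5%), and among the 140 such genes with GC under 38% the median was 16.5 peaks per 100 kb, with 30 denser than Foxp2. The other family genes of this length had 0.335 peaks per 100 kb for Foxp1 (GC 44.4%), a regulator of B cells and lung, 0.528 for Sox6 (40.1%) and 1.99 for Sox5 (42.7%), both factors of cartilage and neurons, and 0.803 for Foxn3 (46.6%), of which Sox5 alone lay above that median of 1.51. The family peaks without Foxp2 had a median GC of 45.1%, against 37.1% for the Foxp2 peaks.

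**Figure D2:**
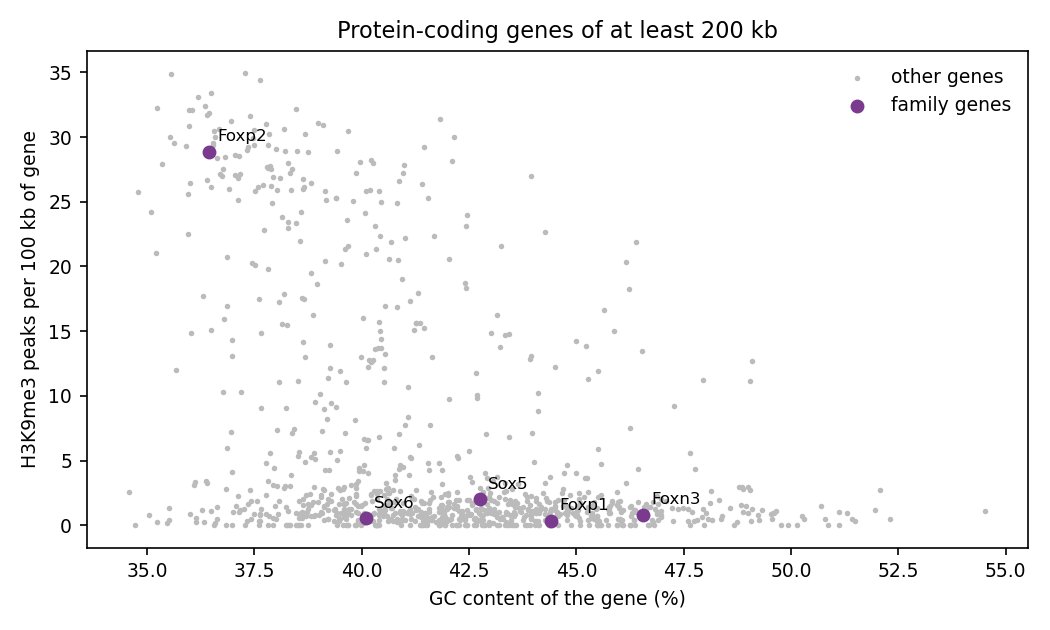
H3K9me3 peaks per 100 kb (y axis) against GC content (x axis) for 998 protein-coding genes of at least 200 kb, with the 5 family genes in purple. Foxp2 sits at 28.9 peaks per 100 kb and GC 36.5%, and Sox6, Sox5, Foxp1 and Foxn3 lie at or below 1.99.

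H3K9me3 at the family peaks was compared with input as the log2 ratio of the share of in-peak reads, so that 0 is the level of the average peak. All values below are such log2 ratios, with 1 read added to each count. Over the 248 peaks the median ratio was -0.13 ± 0.03 in WT and -0.07 ± 0.02 in KO (mean and SD of the medians of 3 libraries), compared with -0.06 ± 0.01 and -0.02 ± 0.02 over all peaks. Foxp2 set this level. Its peaks had a median of -0.26 ± 0.03 in WT and -0.04 ± 0.03 in KO (-0.21 ± 0.05 and -0.10 ± 0.02 with the mean of both inputs), and 128 of 157 lay below 0 in WT. Without Foxp2, a split chosen after seeing the data, the remaining 91 peaks had medians of 0.12 ± 0.09 in WT and -0.14 ± 0.11 in KO.

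Each genotype had 1 input library, and the ratios moved with the input used. With the mean of both inputs, the peaks without Foxp2 had 0.04 ± 0.10 in WT and -0.04 ± 0.10 in KO. Pax peaks had 0.51 ± 0.29 in WT and -0.52 ± 0.18 in KO with the input of the same genotype, but -0.06 ± 0.10 and -0.06 ± 0.16 with both. The Cdx4 peak, at 1.63 in WT and -0.57 in KO, rested on 2 reads in the WT input and 13 in the KO input. Lhx4 peaks stayed higher in WT with both inputs (0.42 ± 0.05 and -0.26 ± 0.33), as did the Fox peaks outside Foxp2 (0.23 ± 0.26 and -0.06 ± 0.21, ranges that overlap). Of the peaks with at least 10 reads in each input, the highest mean WT ratios were 1.26 at the 3' end of Foxk2, 1.22 in an intron of Foxn3, 1.1 at Tbx3os1, 0.92 at Foxp1 and 0.83 at Lhx4.

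The comparison of KO with WT asked whether loss of Smarcad1 altered the mark at these genes. H3K9me3 was lower in KO at 6 family peaks and higher at 1 (limma on the distribution-matched log2 reads, Benjamini-Hochberg adjusted p under 0.05 over all 212313 peaks). This was 2.42% and 0.403% of the 248, close to the background of 2.46% lower and 0.252% higher over all peaks, and of 3.92% and 0.472% over the 77485 peaks within 5 kb of a gene. KO and WT values did not overlap at 46 family peaks (21 lower, 25 higher, together 18.5%), against 15.5% of all peaks. The median log2 change was 0.058 over the family peaks and 0.028 over all peaks (0.020 and 0.013 with edgeR, 0.031 and 0.015 with DESeq2). Without Foxp2, a split chosen after seeing the data, the family median was -0.093, so its sign rested on that gene. An unadjusted limma p under 0.05 was found at 37 of the 248 family peaks, beside 22979 of all 212313 peaks. None of the 200 peaks at Foxp2, Sox2ot and Sox5 passed the threshold (0). Of them, 8 of 157, 4 of 24 and 3 of 19, in that order, had an unadjusted p under 0.05. A Sox2ot peak was called without WT replicate 1 and with log2 values corrected for GC content, and a Sox5 peak without KO replicate 2. All 7 calls fell among the 48 other peaks, 12.5% of which were lower. This split leaves out only peaks without a call, so the 12.5% cannot be set against the 2.46% over all peaks.

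**Figure D3:**
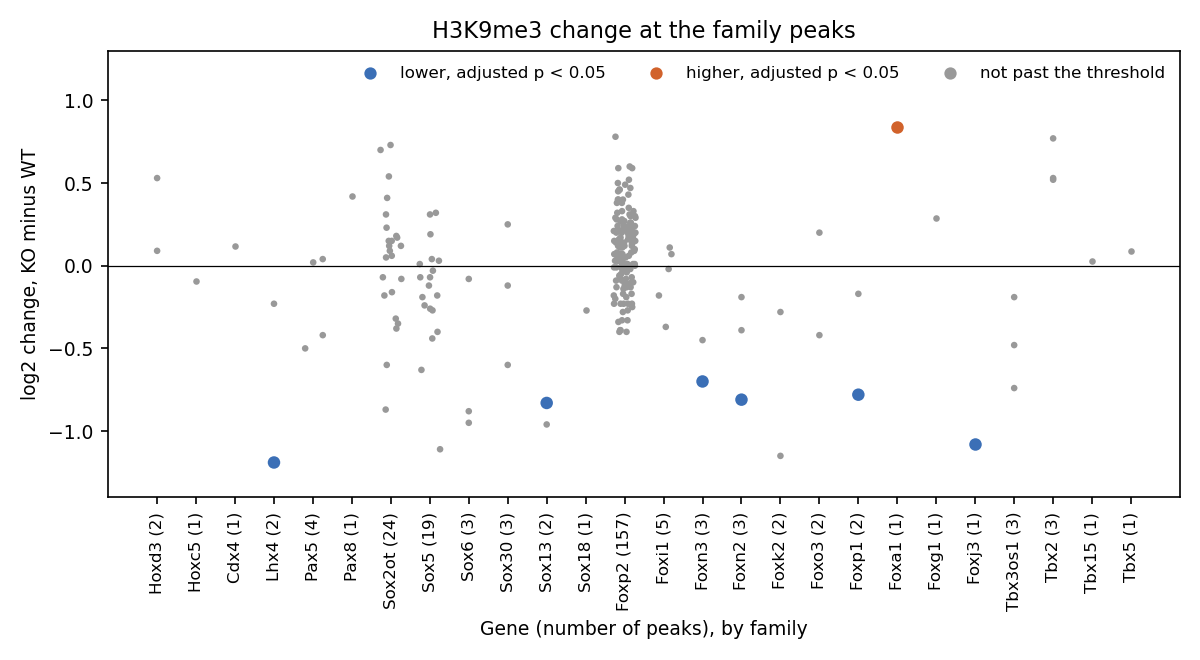
log2 change of H3K9me3 in KO minus WT (y axis, limma) for each of the 248 peaks, by gene in family order (x axis, number of peaks in brackets). Blue points are lower and the orange point is higher at an adjusted p under 0.05; the Foxp2 cloud lies between -0.40 and 0.78 with no called point.

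The Lhx4 peak (chr1:155724751-155725650), which covers coding exon and UTR sequence 26.5 kb into the gene, fell most. Its log2 reads were 5.06, 5.14 and 5.27 in WT and 3.93, 4.03 and 3.96 in KO, for a change of -1.19 (SE 0.25, adjusted p = 0.00162). Every KO library lay below every WT library by more than the spread within either group. The second Lhx4 peak, less than 1 kb away, showed no such separation, with a change of -0.23 (adjusted p = 0.845). Relative to the input of the same genotype, the called Lhx4 peak lay at 0.83 for WT and -0.72 for KO.

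The peak with the smallest p lay 5' of Sox13 (chr1:133428601-133430850, 4224 bp from the gene), which encodes a SOX factor of gamma-delta T cells. Its log2 reads were 6.79, 6.68 and 6.78 in WT and 5.83, 5.82 and 6.10 in KO, a change of -0.83 (SE 0.14, adjusted p = 5.87e-05). The peak inside Sox13 also had lower values in all KO libraries, with a change of -0.96 that missed the threshold (adjusted p = 0.0522). The Foxj3 peak lies within the gene of a forkhead factor known from muscle and testis. Its log2 reads were 5.61, 5.60 and 5.57 in WT and 4.28, 4.24 and 5.01 in KO, a change of -1.08 (SE 0.22, adjusted p = 0.00105). KO replicate 3 was the nearest to WT, and the groups did not overlap.

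FOXN2 and FOXN3 are related forkhead proteins, FOXN3 being a repressor linked to the cell cycle checkpoint. The called Foxn3 peak (chr12:99534151-99537300, intron) had log2 reads of 6.93, 6.92 and 7.09 in WT and 5.80, 6.56 and 6.48 in KO, a change of -0.70 (SE 0.14, adjusted p = 0.0013). KO replicate 1 was lowest, and without it the change was -0.46 and missed the threshold, as it did with DESeq2 (-0.64, adjusted p = 0.0521). All 3 Foxn3 peaks had non-overlapping groups, the other 2 at adjusted p = 0.132 and 0.139. The Foxn2 peak (chr17:88470151-88471500, intron, 77.0% repeat sequence) had 5.85, 5.05 and 5.55 in WT and 4.57, 4.64 and 4.82 in KO, a change of -0.81 (SE 0.22, adjusted p = 0.025). The Foxp1 peak (chr6:99074701-99075900, coding exon and UTR) had 5.85, 5.41 and 5.37 in WT and 4.28, 4.87 and 5.14 in KO, a change of -0.78 (SE 0.22, adjusted p = 0.0333). These last 2 calls were the weakest: the Foxn2 call was lost without WT replicate 1 or 3 or KO replicate 1 or 2 (changes of -0.62, -0.77, -0.75 and -0.79), and the Foxp1 call without any library other than KO replicate 3 (changes of -0.54 to -0.87). With DESeq2 both were lost, at -0.85 (adjusted p = 0.199) for Foxn2 and -0.74 (adjusted p = 0.37) for Foxp1. Without a mean-variance trend in limma, all 7 family calls were lost.

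The single higher peak lay 5' of Foxa1, a pioneer factor of endoderm that is active in the intestinal epithelium. It is 2250 bp long (chr12:57548851-57551100), 1935 bp from the gene, with a GC content of 54.4%, 34.7 CpGs per kb and 2.04% repeat sequence. Its log2 reads were 5.96, 5.26 and 5.21 in WT and 6.28, 6.56 and 6.12 in KO, a change of 0.84 (SE 0.18, adjusted p = 0.00143). WT replicate 1 came nearest to KO. The groups did not overlap, and the log2 ratio over input was -0.30 for WT and 0.09 for KO with the input of the same genotype (48 and 63 reads), or -0.54 and 0.30 with both inputs. With the input of the same genotype, the 6 lower peaks had WT ratios of 0.19 to 0.92 and KO ratios of -0.72 to -0.26. Those peaks were selected on the same ChIP reads, so the ratios add no separate support for the change. WT replicate 1 had higher values at GC-rich peaks throughout (median deviation of 0.218 from the mean of the 6 libraries at a GC of 50% or more, against -0.09 for WT replicate 2). Without WT replicate 1 the Foxa1 change was 1.09 (limma, adjusted p = 0.000117). With a GC correction, chosen after seeing the data, all 7 calls remained and the Foxa1 change was 0.92. The Foxa1 call was lost with DESeq2 (0.81, adjusted p = 0.0504) and with limma without a mean-variance trend (0.84, adjusted p = 0.234).

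**Figure D4:**
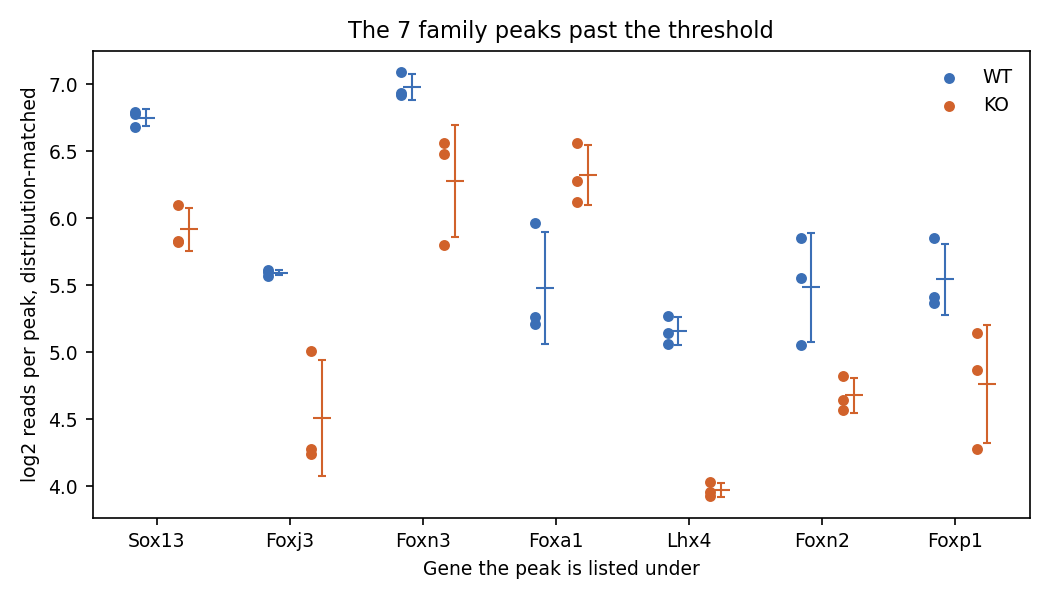
Distribution-matched log2 reads (y axis) in each of 3 WT (blue) and 3 KO (orange) libraries at the 7 family peaks past the threshold (x axis, by p), with the mean and SD beside the points. KO lay below WT without overlap at 6 peaks and above it at Foxa1.

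Families without a call had small or scattered changes. The smallest adjusted p was 0.316 in Hox, at the second Hoxd3 peak, which had 4.94, 5.01 and 4.32 in WT and 5.20, 5.66 and 5.01 in KO, with KO replicate 3 level with WT replicate 2. It was 0.961 at Cdx4 and 0.41 in Pax, at Pax8, where WT replicate 1 (6.21) lay among the KO values (5.59, 6.25 and 6.08) and the other two WT values were 5.14 and 5.31. In Tbx it was 0.0649 at Tbx2, a repressor of limb and heart development. That peak lies over coding sequence at a GC content of 62.4% and had 5.55, 4.06 and 5.02 in WT and 5.36, 5.98 and 5.61 in KO, so that WT replicate 1 overlapped KO. Its change was 0.77, and a Tbx2 peak passed the threshold with edgeR on recovered reads, with the GC correction, without WT replicate 1 and without KO replicate 1. All 3 Tbx2 peaks had changes of 0.52 to 0.77, while the 3 peaks of Tbx3os1 had -0.74 to -0.19, none of them called. Median changes were 0.09 for Hox, -0.71 for Lhx, 0.02 for Pax, -0.07 for Sox, 0.09 for Fox and 0.06 for Tbx. With 1 library left out, the Hox median lay between -0.07 and 0.27, that of Pax between -0.16 and 0.14 and that of Tbx between -0.02 and 0.19, so none of the 3 held its sign. The median was -0.33 for the 20 Fox peaks outside Foxp2, of which 15 were below 0. Leaving out Foxp2 was chosen after seeing the data.

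No Foxp2 peak passed the threshold (0 of 157). Of these, 107 had a change above 0 and 31.8% one below 0, against 45.3% below 0 over all peaks, with a median of 0.12 and quartiles of -0.05 and 0.22, against quartiles of -0.15 and 0.18 over all peaks. KO and WT values did not overlap at 17 peaks in the higher and 5 in the lower direction, together 14.0% against 15.5% of all peaks. The peaks held 0.0639%, 0.0671% and 0.0666% of in-peak reads in WT and 0.0702%, 0.0715% and 0.0708% in KO, so the groups did not overlap, while the inputs went the other way, at 0.0778% in WT and 0.0739% in KO. Every ChIP library held a smaller share there than its input. Peaks in the GC class under 35%, over the whole genome, had a median change of 0.060, and those between 35% and 40% of 0.046. With the GC correction the Foxp2 median was 0.08, and 98 peaks were above 0. In sixths of the gene from 5' to 3', the medians were 0.21, 0.10, 0.05, 0.17, 0.11 and 0.06, with 17 to 32 peaks in each. The first peak was centred 21.0 kb from the annotated start, and 13 of the 157 overlapped an exon. The Foxp2 peak with the smallest p (chr6:15285751-15287550) had 4.94, 4.52 and 5.24 in WT and 5.68, 5.42 and 5.36 in KO (change 0.59, adjusted p = 0.161), with no overlap between the groups.

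**Figure D5:**
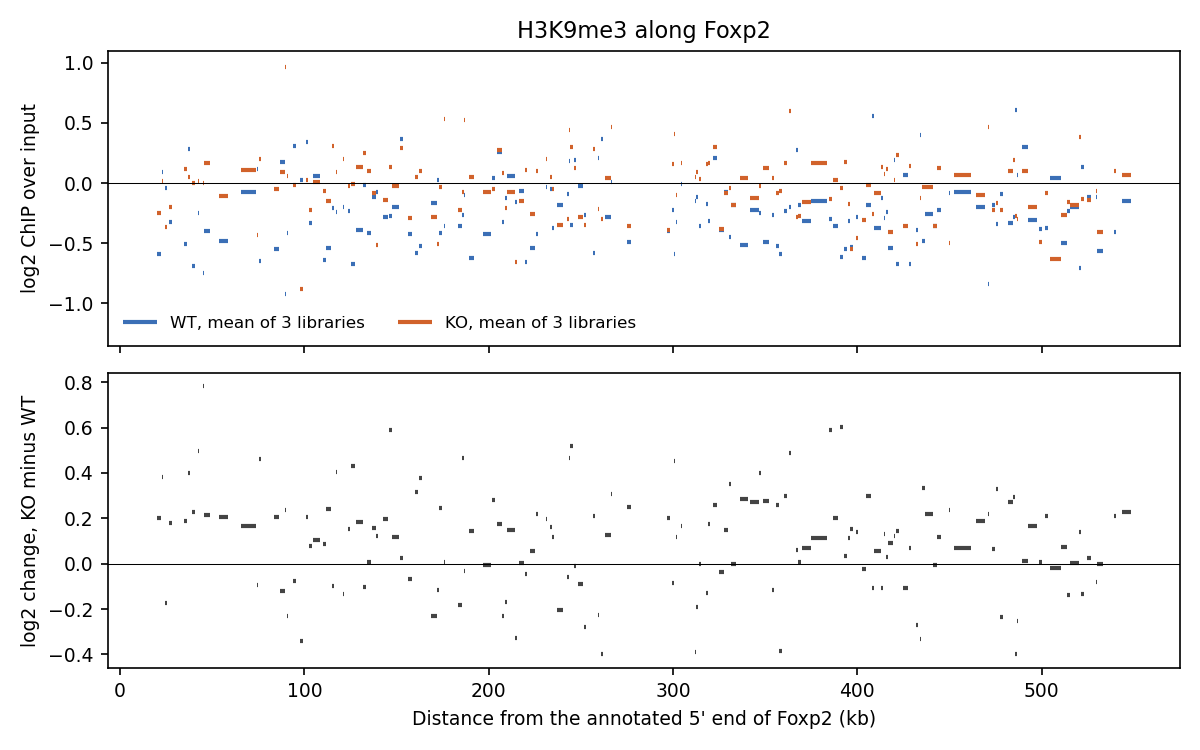
Foxp2 peaks by distance from the annotated 5' end of the gene (x axis, kb), drawn at their width. The upper panel gives the log2 ChIP over input ratio for WT (blue) and KO (orange) as means of 3 libraries, and the lower panel the log2 change in KO minus WT, above 0 at 107 of 157 peaks.

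Sox2ot, a long transcript that overlaps the gene of the stem and neural factor Sox2, held 24 peaks at 4.15 per 100 kb, and Sox2 itself had none. The changes ran from -0.87 to 0.73 with a median of 0.10 (0.02 without WT replicate 3, 0.05 without KO replicate 3 and 0.16 without WT replicate 1), and the smallest adjusted p was 0.0904, at a peak of 3900 bp (chr3:34510801-34514700) with 6.78, 6.26 and 6.48 in WT and 6.94, 6.84 and 6.95 in KO. Sox5 had no called peak (0 of 19), with a median of -0.12 (-0.18 without WT replicate 3 or KO replicate 3, -0.08 without WT replicate 2). At Sox5, 68.4% of peaks were below 0 against 45.3% of all peaks, and the smallest adjusted p was 0.147. Its most changed peak (chr6:143886751-143887200) had 3.74, 4.31 and 4.05 in WT and 3.47, 2.76 and 2.53 in KO, a change of -1.11 without overlap. Sox6 had 3 peaks at -0.95, -0.88 and -0.08, the lowest adjusted p being 0.128. Sox30, a testis factor, had 3 peaks that included a transcript start, with changes of -0.60 to 0.25.

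By tissue of action, 3 of 12 intestinal epithelium genes had peaks: Foxa1, Foxp1 and Foxo3, a FOXO factor of stress and metabolism, with 5 peaks, 1 lower and 1 higher. Over all protein-coding genes 31.2% had a peak, and over all peaks 2.46% were lower and 0.252% higher, and with so few members these counts set no list apart. The 2 Foxo3 peaks had changes of 0.20 and -0.42, neither called. Cdx1, Cdx2, Foxa2, Foxa3, Foxo1, Gata4, Gata6, Sox4 and Sox9 had none. Of 11 mesenchyme genes, Tbx2 and Tbx5 had 4 peaks with no call (0). Of 17 neural and neural crest genes, Pax5, Sox5 and Sox6 had 26 peaks, none called (0), and of 7 blood and immune genes, Pax5 and Foxp1 had 6, 1 lower. The expression of these genes was not measured here.

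Among 27 cofactor genes of these families, 9 had 227 peaks, of which 2 were lower and 1 higher, and their median change was 0.077. These counts stand beside 31.2% of all protein-coding genes with a peak and 2.46% lower and 0.252% higher of all peaks. Zfpm2, the GATA cofactor FOG2, held 158 of these at 34.9 per 100 kb (gene GC 37.3%), with a median of 0.12 and no call (0), although no Gata gene had a peak. Eya1, a transcriptional coactivator, held 47. Lower peaks lay at Eya2 (-1.03, SE 0.15, adjusted p = 4.62e-06), where WT averaged 6.69 ± 0.23 and KO 5.66 ± 0.18 log2 reads, and at the corepressor gene Tle3 (-0.70, SE 0.19, adjusted p = 0.0262). The higher peak lay at Eya4 (0.91, SE 0.25, adjusted p = 0.0287). Only 1 of these 3 calls remained at an adjusted p under 0.01 (Eya2), and the number called among cofactor peaks was 1 with DESeq2, without KO replicate 1 or without KO replicate 2, and 0 without a mean-variance trend. The HOX cofactors of the Pbx, Meis and Pknox genes had 1 peak in all, at Meis1.

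In the H3K9me2 table, 81 regions were listed with a gene of these families, at 17 genes, and none with a Hox, Gata or Cdx gene (0). Foxp2 had 20, Sox2ot 18 and Sox5 16. Regions covered 60.3% of Foxp2 and 62.1% of Sox2ot, but 4.80% of Sox5. Both marks were found at 9 genes, which is 34.6% of the 26 with an H3K9me3 peak and 52.9% of the 17. H3K9me2 without an H3K9me3 peak was found at Pax6os1 (5 regions), Pax3, Tbx20 and Nkx2-2os (2 each) and Pax1, Lhx8, Tbx18 and Tbx22 (1 each). Of the family H3K9me3 peaks, 54.8% touched an H3K9me2 region, against 68.2% of all peaks. The share was 67.5% at Foxp2 and 95.8% at Sox2ot, but 10.5% at Sox5. It was 10.4% at the 48 other peaks, or 5 of them. All 5 lay at Foxi1, where 1 region covers the whole gene, so this share describes a single locus. None of the 7 called peaks touched a region (0), and they lie at other genes.

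H3K9me2 did not pass the threshold in KO at any family region (0 of 81, edgeR quasi-likelihood test on summed reads, background 0.00212% of 47065 regions), and 3 had an unadjusted p under 0.05. With DESeq2, 0 were called as well. The smallest p was 0.00624 (adjusted p = 1.0) at Foxp2 (chr6:15031351-15034800), which held 6.45, 5.82 and 6.90 CPM (in-region reads scaled to library size) in WT and 4.38, 4.63 and 5.53 in KO, a log2 change of -0.40 without overlap. The next smallest edgeR p-values were 0.0281 at the 3' end of Foxp2, with a change of -0.21, and 0.0394 at Sox6, with a change of -0.35, both at an adjusted p of 1.0. The median log2 change was -0.04 over family regions and -0.02 over those of Foxp2, where the H3K9me3 median was 0.12.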

How the data were processed

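According to the study's methods, paired-end reads were trimmed with Trim Galore 0.4.4, mapped to GRCm38 with Bowtie2 2.3.2 and filtered in SeqMonk, and MACS called peaks once per mark on all ChIP libraries against both inputs. For H3K9me3 the authors deposited log2 reads per peak, with distributions matched over the 6 ChIP libraries, which removes any genome-wide shift, whereas inputs were plain log2 counts. For H3K9me2 the authors deposited a signal per region, the mean count of its MACS peaks, multiplied here by the number of peaks to give whole reads. A table of read counts and one of log2 values deposited by the authors listed only peaks past their own test, and their adjusted p-values were not used, nor were 8 columns of standard deviations. Groups came from sample titles. The study calls its libraries biological replicates but does not state that each came from a separate mouse, and p-values measure the spread between libraries.

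H3K9me3 was tested with limma 3.58.1 (trend) over all peaks and H3K9me2 with edgeR 4.0.16 (quasi-likelihood, TMM) over all regions, both two-sided. Whole H3K9me3 reads were recovered from the distinct values of each library (99.81% to 99.88% of values within 0.002 log2), a step that served ratios and count tests, and all 248 family peaks were recovered exactly. Intervals of counting error were not computed; the median of 23 to 38 reads per peak limits precision. The deposited orientation gives the place of the gene relative to the peak: of peaks labelled downstream, 7457 lay 5' of the gene and 2 lay 3', so 5' and 3' were taken from GENCODE M21 coordinates. Sequence, GC and repeats came from GRCm38. Functions were tested on simulated data. Peaks named were those past the threshold (at most 30), the smallest p per family, the gene with most peaks per family, the 5 highest WT ratios with at least 10 reads in each input, peaks of the intestinal epithelium list, and H3K9me2 regions with the smallest p; the best Foxp2, Sox2ot, Sox5 and cofactor peaks were added after seeing the values. Members and lists were chosen with earlier results of these data known. Python 3.11.15, R 4.3.3 and DESeq2 1.42.0 were used. Some items are not reported here.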

Additional observations from a re-analysis of the deposited data

How the results depend on the processing

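Against 6 lower and 1 higher family peaks, DESeq2 1.42.0 on recovered reads called 3 and 0, limma without a mean-variance trend 0 and 0 (28 peaks at an unadjusted p under 0.05, and the cause was not tested), and a log2 change of at least 1 left 2 and 0. edgeR on recovered reads gave 2 higher, the GC correction 3 higher, and peaks over genes alone 5 lower and 0 higher, since the Sox13 and Foxa1 peaks lie outside their genes. Leaving out 1 library gave 3 to 8 lower and 1 to 4 higher, the extremes being without KO replicate 1 (3 lower, 2 higher), KO replicate 3 (8 lower) and WT replicate 1 (4 lower, 4 higher). Of 13 alternatives in the fit, normalization, filter or libraries, the absent trend alone ended the calls at Sox13, Foxj3 and Lhx4, and none turned the direction of a called peak. Without Foxp2, a split chosen after seeing the data, the median change over family peaks was -0.093. The median log2 ratio over input was then 0.12 for WT libraries and -0.14 for KO libraries. With 10 reads added, the WT ratio was -0.17. The Tbx median was 0.52 without Tbx3os1, and -0.02 with edgeR and -0.01 with DESeq2. The Sox median moved from -0.07 to -0.02 with the GC correction, to -0.18 without Sox2ot, and between -0.14 and -0.01 with 1 library left out. Cofactor genes had 3 called peaks, but 1 with DESeq2, 0 without a trend, 1 at an adjusted p under 0.01, 1 at a log2 change of at least 1 and 1 to 4 with 1 library left out. The other lists had 2, but 0 with DESeq2, 0 without a trend, 1 at an adjusted p under 0.01, 0 at a log2 change of at least 1, and 1 to 3 with 1 library left out. The family H3K9me2 regions had 0 calls under every alternative run.

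Deviations of same-numbered WT and KO libraries correlated between -0.015 and 0.009 for H3K9me3 and between 0.015 and 0.184 for H3K9me2. These values cannot tell whether such libraries shared a litter, day or batch. A replicate block left 6 lower and 1 higher H3K9me3 peaks, all shared with the fit without it, and 0 H3K9me2 regions. The Cdx median could not be computed with a filter on mean log2 values of at least 4. The single input per genotype and 23 to 38 reads per peak limit the precision of the ratios.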
